A study of Mus musculus with 4 samples.

Results

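The genes described are the mouse chemokines, interleukins and colony-stimulating factors, the secreted proteins with which cells call in and instruct leukocytes. They were chosen by gene symbol: every symbol that is Cxcl or Ccl with a number, Cx3cl1, every interleukin ligand symbol of the form Il with a number and at most 1 letter from a to f, and Lif, Csf1, Csf2, Csf3 and Tnf. The array annotation holds 70 such genes among the 19938 genes that it pairs with a probe set of their own. Of the 70, 40 had a mean signal above the limit used for testing (log2 4.27, the 30th percentile of gene means) and 30 did not. The limit fell between Il15, with a mean of 4.38, and Il19, with a mean of 4.24. Il22 is not included, because its probe sets carry a second symbol.

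The cells are 2 tumour lines, 167 and 365, grown from soft tissue tumours of Smarcb1-heterozygous p53-/- mice on a C57BL6/SV129J background. Both lines, and so all arrays, lack p53 and are Smarcb1-deficient by origin. Smarcb1 belongs to SWI/SNF, a complex that uses ATP to move nucleosomes and open chromatin. Each line was infected with the retrovirus pMIG, either empty or carrying Smarcb1, and total RNA was taken 3 days later, a time chosen by the submitters to favour direct targets. Each of the 4 combinations of line and vector was measured on 1 whole-transcript array. The labels do not say whether a line is a single clone, and they give neither an age nor repeat cultures.

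Chemokines bind receptors coupled to G proteins and steer leukocytes along their gradient. The CXC members Cxcl1, Cxcl2 and Cxcl5 draw neutrophils through Cxcr2, CC members such as Ccl2 and Ccl7 draw monocytes through Ccr2, and Cxcl9 and Cxcl10 draw T cells through Cxcr3. Many inflammatory cytokine genes are switched on by NF-κB, and tumour and stromal cells as well as leukocytes make several of them.

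The arrays were checked before the members were read. Signals are log2 probe set values, which can be compared between arrays but not between genes. Smarcb1 itself rose, with 4.61 (empty vector) and 7.83 (Smarcb1) on the arrays of line 167 and 6.01 and 9.61 on those of line 365 (fitted change 3.41 ± 0.20 SE, limma adjusted p = 0.0371). The leukocyte markers Ptprc (3.66 to 4.06) and Spi1 (3.39 to 3.68) lay below the limit on every array, and 3 of the 17 haematopoietic markers found were above it, namely Cd3e, Flt3 and Cd68. The macrophage marker Cd68 was at 9.32 with empty vector and 8.69 with Smarcb1 in line 167, and 9.95 and 8.18 in line 365, and the summed signal of the list, to which Cd68 adds most, had log2 values of 9.76 and 9.32 in line 167 and of 10.3 and 9.01 in line 365, with empty vector first. The 10 fibroblast and mesenchymal markers were above the limit. In the test between the lines 5 of the 10 were called higher in line 167, against 5.64% of the genes tested. Col1a1 was at 7.91 with empty vector and 10.56 with Smarcb1 in line 167, and 6.38 and 6.41 in line 365. With Smarcb1 the median change of this list was 1.06 in line 167, where 9 of 10 markers were higher, and 0.06 in line 365, where 7 were. The medians over all genes tested were -0.06 and -0.0059. The summed signal of the list, to which Vim adds most, had log2 values of 14.2 and 14.4 in line 167 and of 13.5 on both arrays of line 365. The endothelial marker Cdh5 was at 3.78 with empty vector and 3.64 with Smarcb1 in line 167, and 9.06 and 8.29 in line 365, while Pecam1 stayed between 3.95 and 4.35. Of the 6 epithelial markers, Epcam stayed below the limit (3.79 to 4.09) and the other 5 were above it, with Cdh1 between 4.57 and 4.77 and Krt8 between 5.63 and 6.04. In bulk RNA, fewer cells of a type and less RNA per cell cannot be told apart, and the part of these markers in the results on cytokines was not tested.

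The first comparison asks which cytokine genes change when Smarcb1 is put back. In both lines Cxcl12 was the member with a higher signal by more than 2-fold, and single lines added Cxcl5, Cx3cl1 and Ccl9 on the high side in line 167 and Cxcl10, Cxcl2 and Cxcl16 on the low side in line 365. None of the 40 passed the test over all genes. That test (limma with a term for the line and a term for the vector, Benjamini-Hochberg adjustment over 13956 genes at 0.05) called 0 of 40 members higher and 0 lower, where it called 9 genes higher (0.0645% of those tested) and 0 lower (0%). At an unadjusted p under 0.05 it picked 6 of 40 members (15%), against 11.6% of the genes tested. These were Ccl20, Cx3cl1, Cxcl5, Cxcl12 and Lif, all with higher values, and Cxcl2 with lower values. With 1 residual degree of freedom a p that misses the threshold does not show that a gene stayed the same. Each p sets a change against the spread between these 2 lines only, moderated across genes. The moderation adds 3.75 prior degrees of freedom to the 1 residual.

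Counted by size, with no test, 1 of 40 members (2.5%) was at least 2-fold higher with Smarcb1 in both lines, against 1.33% of the genes tested, and 0 were 2-fold lower in both, against 0.186%. Taking line 167 by itself, 4 members (10%) were at least 2-fold higher, against 3.4% of genes, and 0 were 2-fold lower, against 1.49%. Taking line 365 by itself, 1 member (2.5%) was 2-fold higher, against 2.84% of genes, and 3 members (7.5%) were 2-fold lower, against 1.17%. The signs were opposite in the 2 lines for 67.5% of the 40 members and for 39.8% of all genes tested. Of the 40, 18 (45%) were higher in line 167 and lower in line 365 with Smarcb1, a pattern found in 16.8% of all genes tested. Another 9 (22.5%, against 23.0% of genes) were lower in line 167 and higher in line 365. In both lines 9 (22.5%, against 26.0%) were higher and 4 (10%, against 34.1%) were lower. The median change of the 40 was 0.18 in line 167 and -0.02 in line 365, beside -0.06 and -0.0059 over all genes tested. Many of these values are small. The genes tested were not matched to the members in signal, and with the limit at the 50th percentile 12 of the 40 members remained. A member that passed the limit only through an array where it was high had to differ. These shares therefore describe the members above the limit and carry no test. The plot of the change in each line against the other shows this split.

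**Figure D1:**
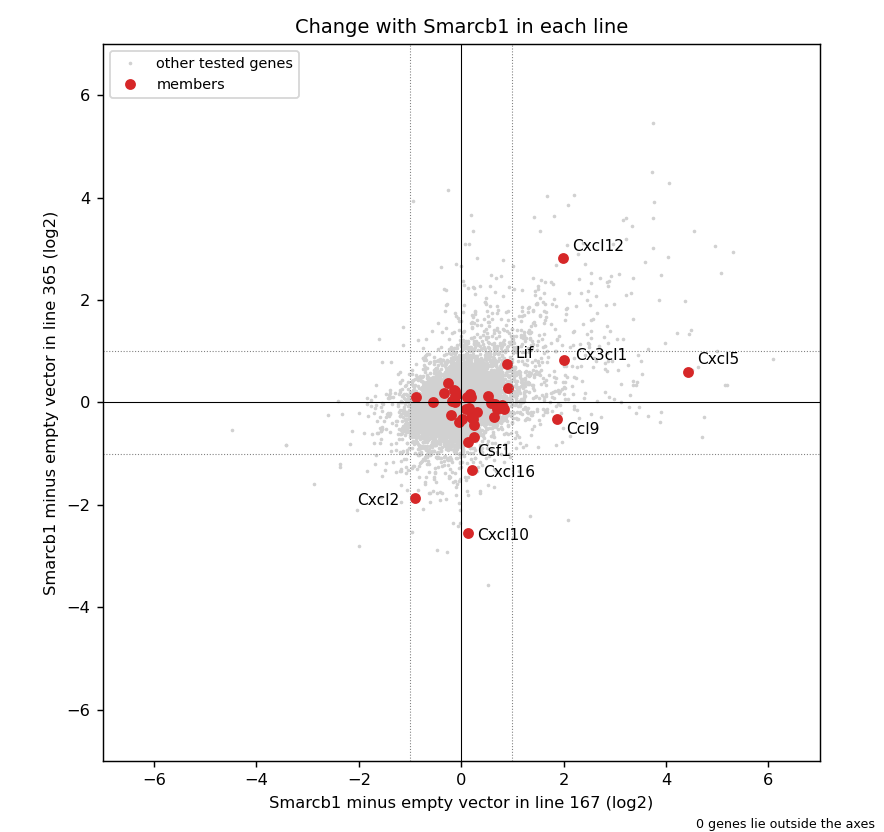
Change with Smarcb1 (log2, Smarcb1 minus empty vector) in line 365 (vertical axis) against line 167 (horizontal axis). Red points are the 40 members above the limit, grey points the other genes tested and dotted lines 2-fold. Cxcl12 lies high on both axes (1.99 and 2.81), Cxcl5 far to the right (4.43 and 0.60) and Cxcl10 at the bottom (0.14 and -2.54).

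Among chemokines outside the neutrophil and interferon groups, Cxcl12 had the smallest p of all members. Cxcl12 is the ligand of Cxcr4 and Ackr3 and a stromal homing and retention signal. Its signal was 5.25 with empty vector and 7.24 with Smarcb1 in line 167, and 5.28 and 8.09 in line 365. Both Smarcb1 arrays were above both empty-vector arrays, which were alike. The difference was 3.96-fold in line 167 and 7.01-fold in line 365, with a fitted change of 2.40 ± 0.27 (SE) and an unadjusted limma p of 0.000367, adjusted p = 0.0865. With no limit on low signals the adjusted p was 0.0473 and with the limit at the 50th percentile 0.0318, so in those settings Cxcl12 passed. It did not pass after quantile normalization (0.0555) or cyclic loess (0.0588).

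Cx3cl1, a chemokine tethered to the membrane that binds Cx3cr1 on monocytes and lymphoid cells, was at 5.45 with empty vector and 7.46 with Smarcb1 in line 167, and 5.21 and 6.05 in line 365. The Smarcb1 array was the higher of each pair and the groups did not overlap, with 4.02-fold in line 167 and 1.79-fold in line 365. The fitted change of 1.42 ± 0.33 (SE) did not pass (limma adjusted p = 0.251). Cxcl16, the transmembrane ligand of Cxcr6, was at 6.64 with empty vector and 6.85 with Smarcb1 in line 167, and 8.51 and 7.20 in line 365. The empty-vector array of line 365 stood above the other 3, and the groups overlapped. Its difference was 0.21 in line 167 and -1.31, or 2.48-fold lower, in line 365, and the fitted change of -0.55 ± 0.39 (SE) had an adjusted limma p of 0.633. Cxcl14 and Cxcl17 had differences between -0.44 and 0.24 in either line.

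The neutrophil-attracting members differed in the sign of their values. Cxcl5 was at 5.11 with empty vector and 9.53 with Smarcb1 in line 167, and 5.79 and 6.39 in line 365. The Smarcb1 array of line 167 stood far above the other 3, 21.5-fold above its own control, while the pair of line 365 differed 1.52-fold, and the groups did not overlap. This is the largest difference of any member in either line, yet the fitted change of 2.51 ± 0.90 (SE) had an adjusted limma p of 0.406. The residual of the fit is the difference between the lines in response, and it is large for Cxcl5. Cxcl2 was at 7.21 with empty vector and 6.29 with Smarcb1 in line 167, and 9.17 and 7.31 in line 365. It was lower with Smarcb1 in each pair, 1.88-fold in line 167 and 3.63-fold in line 365, but the groups overlapped, since line 365 with Smarcb1 lay above line 167 with empty vector. The fitted change of -1.39 ± 0.28 (SE) did not pass (limma adjusted p = 0.201). Cxcl1, which neighbours Cxcl2 in the genome, was at 7.37 with empty vector and 7.61 with Smarcb1 in line 167, and 9.14 and 8.46 in line 365. Its groups overlapped, with a difference of 0.24 in line 167 and -0.68 in line 365 (fitted -0.22 ± 0.26 (SE), limma adjusted p = 0.786).

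Cxcl10, the interferon-induced ligand of Cxcr3, was at 6.25 with empty vector and 6.38 with Smarcb1 in line 167, and 9.45 and 6.90 in line 365. The empty-vector array of line 365 was alone at a high level and the groups overlapped. With Smarcb1 the signal was 5.83-fold lower in line 365 and 1.10-fold higher in line 167. The fitted change of -1.20 ± 0.64 (SE) had an adjusted limma p of 0.543. Cxcl9, which binds the same receptor, stayed between 4.22 and 4.60 on the 4 arrays, and Cxcl11 was below the limit. The empty-vector array of line 365 thus held the highest signal of Cxcl1, Cxcl2, Cxcl10 and Cxcl16 alike, and of other members such as Csf1 (10.68). These genes were set together after their values were seen, and the share of all genes highest on that array was not counted.

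**Figure D2:**
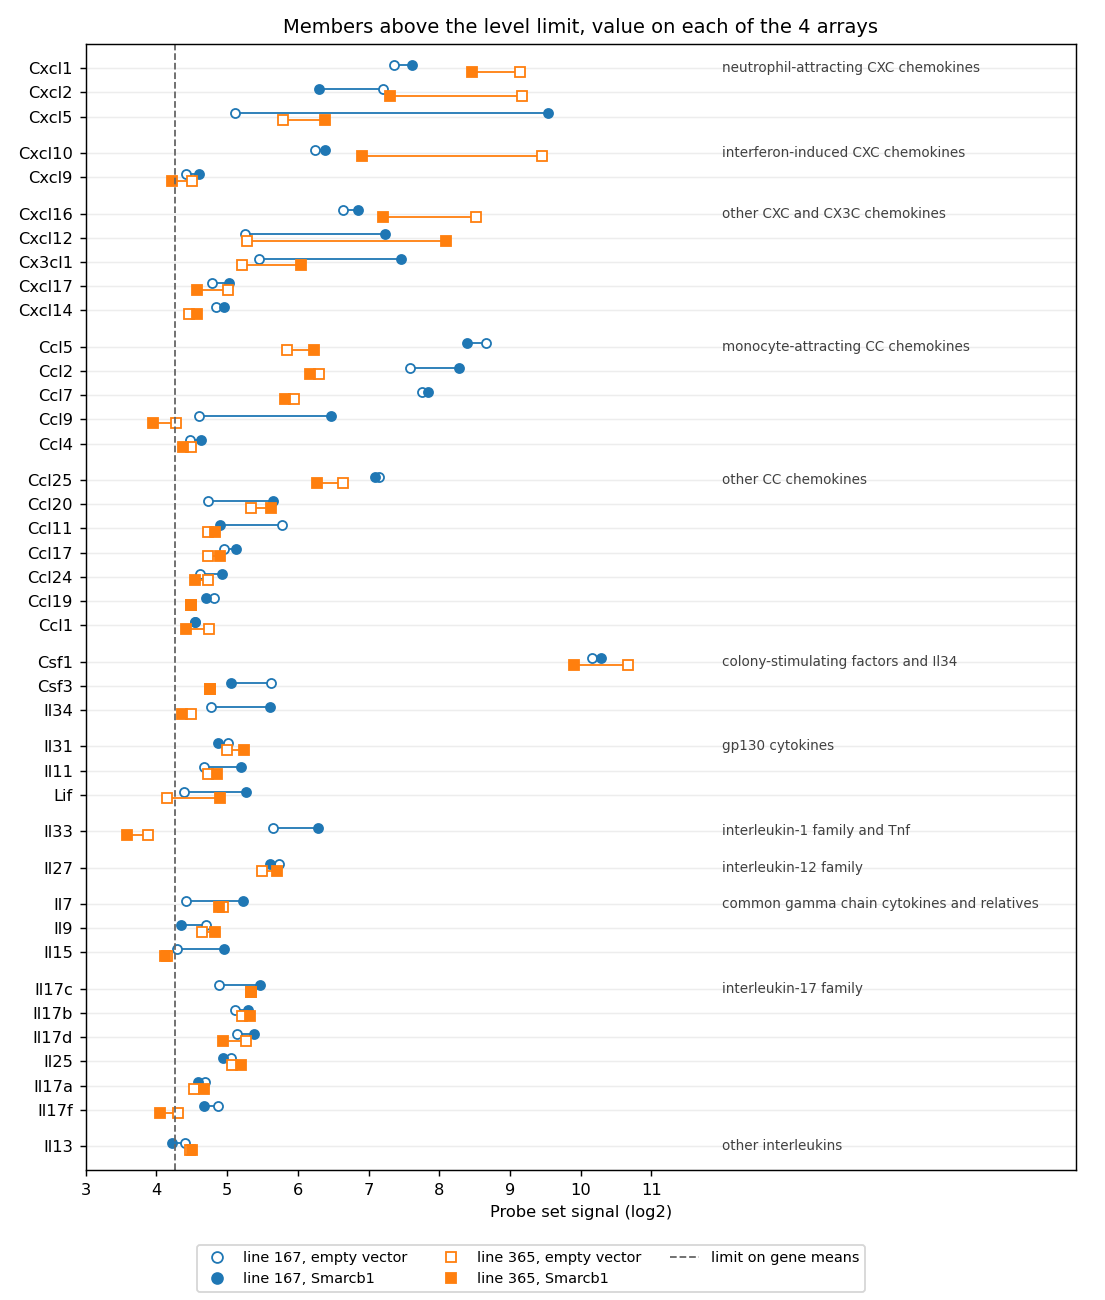
Signal (log2, horizontal axis) of the 40 members above the limit, by role, on each of the 4 arrays (circles for line 167, squares for line 365, open for empty vector, filled for Smarcb1), with the limit on gene means as a dashed line and no error bars, since each line and vector has 1 array. Cxcl12 and Cx3cl1 are higher with Smarcb1 in both lines, Cxcl10 and Cxcl16 are highest on the empty-vector array of line 365 (9.45 and 8.51), and Ccl5 and Ccl7 separate by line.

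The promoters of members with large differences are shown. Some chemokines that were higher with Smarcb1 in both lines are set beside some that were highest on the empty-vector array of line 365. They are the 250 bases before the RefSeq gene start (GRCm38.p6), written from 5′ to 3′ on the gene's strand, and capitals mark matches, on either strand, to GGANNTTCC (a core NF-κB motif), GAAANNGAA (a core of the interferon-stimulated response element, ISRE) or TGANTCA (AP-1). Overlapping letters were allowed, and a palindromic match was counted once. The table holds such an entry for 49 of the 70 members and for 8 of the 13 given in full. Cxcl5, Cxcl16, Ccl2, Ccl5 and Ccl7 are not shown. The first pair, Cxcl12 (chr6:117168285-117168534, plus strand) and Cx3cl1 (chr8:94771930-94772179, plus strand), was higher with Smarcb1 in both lines.
Cxcl12: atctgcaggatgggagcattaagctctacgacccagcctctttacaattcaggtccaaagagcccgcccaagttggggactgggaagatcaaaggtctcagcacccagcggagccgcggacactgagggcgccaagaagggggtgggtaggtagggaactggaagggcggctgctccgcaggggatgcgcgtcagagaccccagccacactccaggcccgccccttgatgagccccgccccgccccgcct
Cx3cl1: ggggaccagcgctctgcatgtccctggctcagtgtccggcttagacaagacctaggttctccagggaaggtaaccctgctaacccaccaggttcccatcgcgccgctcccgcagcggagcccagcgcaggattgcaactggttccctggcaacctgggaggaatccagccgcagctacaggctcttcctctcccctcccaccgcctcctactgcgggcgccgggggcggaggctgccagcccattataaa
Neither window holds a match to the 3 motifs, which says only that these letters are not in it. The other members shown are Cxcl2 (chr5:90903649-90903898, plus strand), Cxcl1 (chr5:90890995-90891244, plus strand) and Cxcl10 (chr5:92348890-92349139, minus strand).
Cxcl2: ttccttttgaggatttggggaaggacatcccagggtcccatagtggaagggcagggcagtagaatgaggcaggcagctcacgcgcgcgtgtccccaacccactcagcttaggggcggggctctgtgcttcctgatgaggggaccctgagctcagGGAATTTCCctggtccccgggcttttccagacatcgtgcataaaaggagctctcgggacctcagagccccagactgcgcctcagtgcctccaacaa
Cxcl1: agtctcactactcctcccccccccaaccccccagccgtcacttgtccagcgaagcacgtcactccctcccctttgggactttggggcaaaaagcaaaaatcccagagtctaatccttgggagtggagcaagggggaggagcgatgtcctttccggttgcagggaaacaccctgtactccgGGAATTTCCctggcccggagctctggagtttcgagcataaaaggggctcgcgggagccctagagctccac
Cxcl10: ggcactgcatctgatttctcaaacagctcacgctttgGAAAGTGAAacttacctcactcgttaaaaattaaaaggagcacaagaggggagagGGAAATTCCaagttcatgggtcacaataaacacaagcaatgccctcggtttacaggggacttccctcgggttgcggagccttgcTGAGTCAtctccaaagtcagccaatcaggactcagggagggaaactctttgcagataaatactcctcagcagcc
Cxcl2 and Cxcl1 carry the same 9 letters, GGAATTTCC, at 96 to 88 and at 70 to 62 bases before the start. Cxcl10 holds GGAAATTCC at 158 to 150, the ISRE letters GAAAGTGAA at 213 to 205 and the AP-1 letters TGAGTCA at 74 to 68 bases before the start.

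Over the 32851 promoter windows of the table, 3.59% held the NF-κB letters, 7.13% the ISRE letters and 6.75% the AP-1 letters. The members' 56 windows (49 genes, some with more than 1 start) held them in 14 (25%), 10 (17.9%) and 9 (16.1%). Members with the NF-κB letters include genes above the limit, such as Csf1, and genes below it, such as Il6, Tnf and Cxcl3. Lif and Il11 hold the AP-1 letters and Cxcl14 the ISRE letters, and these genes too were higher with Smarcb1 in both lines. The Cxcl12 and Cx3cl1 windows therefore do not stand for all members higher in both lines. A match is a run of letters, not a bound site.

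Among the CC chemokines that attract monocytes, 5 of 9 were above the limit, and Ccl9 was the member that differed most with Smarcb1. Ccl9, a ligand of Ccr1, was at 4.60 with empty vector and 6.47 with Smarcb1 in line 167, and 4.28 and 3.96 in line 365. The Smarcb1 array of line 167 was the only high one and the groups overlapped. It was 3.65-fold above its control, the pair of line 365 differed by -0.33, and the fitted change of 0.77 ± 0.53 (SE) did not pass (limma adjusted p = 0.620). Ccl2, the main Ccr2 ligand, was at 7.58 with empty vector and 8.27 with Smarcb1 in line 167, and 6.31 and 6.17 in line 365, with differences of 0.69 and -0.13. Its line 167 arrays were both above its line 365 arrays (limma adjusted p for the vector = 0.725). Ccl7, a second Ccr2 ligand, was at 7.76 with empty vector and 7.85 with Smarcb1 in line 167, and 5.95 and 5.82 in line 365, and Ccl5, which draws T cells as well as monocytes, was at 8.65 with empty vector and 8.40 with Smarcb1 in line 167, and 5.85 and 6.22 in line 365. For both, the groups overlapped. Ccl7 differed with Smarcb1 by 0.09 and -0.12 and Ccl5 by -0.26 and 0.38 in lines 167 and 365 (limma adjusted p = 0.980 and 0.944). Ccl4, another attractant of monocytes, lay between 4.38 and 4.63.

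The remaining CC chemokines held 7 of 10 members above the limit and had smaller differences. Ccl20, the ligand of Ccr6, was at 4.73 with empty vector and 5.64 with Smarcb1 in line 167, and 5.35 and 5.63 in line 365, and both Smarcb1 arrays were above both empty-vector arrays by a narrow margin, with a fitted change of 0.60 ± 0.22 (SE) and an adjusted limma p of 0.418. Ccl11, the eosinophil attractant eotaxin, was at 5.78 with empty vector and 4.89 with Smarcb1 in line 167, and 4.73 and 4.83 in line 365, with line 167 and empty vector as the high array (limma adjusted p = 0.635). Ccl1, Ccl17, Ccl19, Ccl24 and Ccl25 differed by -0.37 to 0.31 in the 2 lines. Ccl19 is present in several near-identical copies in the mouse genome, which the array annotation spreads over 5 probe sets, so its value is uncertain.

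Of the haematopoietic growth factors, Csf1 had the highest mean of all members, on a scale that does not compare genes. Csf1, the macrophage growth factor, was at 10.16 with empty vector and 10.29 with Smarcb1 in line 167, and 10.68 and 9.90 in line 365. Line 365 with empty vector was highest and line 365 with Smarcb1 lowest, so that the groups overlapped, and the fitted change of -0.32 ± 0.24 (SE) did not pass (limma adjusted p = 0.655). Il34, the second ligand of the Csf1 receptor, was at 4.77 with empty vector and 5.60 with Smarcb1 in line 167, and 4.49 and 4.37 in line 365, with line 167 and Smarcb1 as the high array (limma adjusted p = 0.650). Csf3, the neutrophil growth factor, was at 5.62 with empty vector and 5.06 with Smarcb1 in line 167, and 4.75 and 4.76 in line 365, with line 167 and empty vector as the high array (limma adjusted p = 0.646). Csf2 was below the limit.

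The group of gp130 cytokines as taken here (Lif, Il6, Il11 and the related Il31) held 3 of 4 members above the limit. Lif, the leukaemia inhibitory factor, was named after its values were seen. It was at 4.39 with empty vector and 5.27 with Smarcb1 in line 167, and 4.15 and 4.91 in line 365. Both Smarcb1 arrays were above both empty-vector arrays, and the pairs differed 1.85-fold in line 167 and 1.69-fold in line 365. Its fitted change of 0.82 ± 0.15 (SE) had an unadjusted limma p of 0.0029 and an adjusted p of 0.173, and its empty-vector signal in line 365 lay below the limit. Il11 was at 4.68 with empty vector and 5.20 with Smarcb1 in line 167, and 4.74 and 4.86 in line 365 (fitted 0.32 ± 0.18 (SE), limma adjusted p = 0.550). Il31 differed by -0.15 and 0.24, and Il6 was below the limit.

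Il33, an alarmin of the interleukin-1 family held in the nucleus, was above the limit, unlike Il1a, Il1b, Il18 and Tnf. It was at 5.65 with empty vector and 6.29 with Smarcb1 in line 167, and 3.88 and 3.59 in line 365, so line 365 was below the limit on both arrays and line 167 above it. The vector made a difference of 0.64 and -0.29 (limma adjusted p = 0.828). The lymphoid growth factors Il7 and Il15 were higher with Smarcb1 in line 167, by 0.80 and 0.66, and differed by -0.05 and -0.03 in line 365. Il15 was at 4.29 with empty vector and 4.95 with Smarcb1 in line 167, and 4.15 and 4.12 in line 365. Both arrays of line 365 were below the limit. Il15 thus passed only through line 167, so the filter favoured a high value there, and the size of its change is uncertain. Il9 differed by -0.35 and 0.19, Il13 by -0.18 and 0.02, and Il27 by -0.13 and 0.21. All 6 members of the interleukin-17 family were above the limit, with signals from 4.06 (Il17f) to 5.47 (Il17c). With Smarcb1 they differed by -0.21 to 0.58 in line 167, and the range for line 365 was -0.33 to 0.14.

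The 30 members below the limit have signals from 2.73 to 4.47, and 26 of them were below it on all 4 arrays. Their number includes the inflammatory trio Il1a, Il1b and Tnf, together with Il18, and Il6, the main inflammatory gp130 cytokine. It includes the interleukin-10 family genes Il10, Il19, Il20 and Il24, the interleukin-12 family chains Il12a, Il12b and Il23a, and the T cell cytokines Il2, Il3, Il4, Il5 and Il21, with Il16 and Csf2. Of the chemokines, Ccl3, Ccl6, Ccl8, Ccl12, Ccl22, Ccl26, Ccl28, Cxcl3, Cxcl11, Cxcl13 and Cxcl15 were below it. Their largest differences with Smarcb1 were 0.70 for Ccl3 in line 167 and -0.64 for Il12b in line 365. Signals of this size were not separated from background here, so they do not show that a gene is silent.

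The second comparison sets the lines against each other. Line 167 had the higher signal for the monocyte and T cell attractants Ccl2, Ccl5 and Ccl7 and for Il33. Line 365 had the higher signal for the neutrophil attractants Cxcl1 and Cxcl2. The test of the line term called 4 of 40 members (10%) higher in line 167, against 5.64% of the genes tested, and 2 of 40 (5%) higher in line 365, against 5.31%. By size, 5 of 40 members (12.5%) were at least 2-fold apart the same way with both vectors, against 6.15% of the genes tested. These were Ccl2, Ccl5, Ccl7, Il33 and Cxcl2. Il33 lay below the limit on both arrays of line 365 and entered the test only through line 167. Without it 3 of 40 members (7.5%) were called higher in line 167 and 4 of 40 (10%) were 2-fold apart. Each line is 1 tumour line, so these values describe 167 and 365 and not classes of tumour. The test sets the line difference against how it changes with the vector, moderated across genes. Its p-values hold no spread between repeat cultures. Of the 10 fibroblast markers given above, 5 were also called higher in line 167, against 5.64% of the genes tested. The part of these markers in the line differences was not tested.

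Ccl5 had the largest fitted difference among the called members, and differed 6.99-fold with empty vector and 4.50-fold with Smarcb1. Its fitted difference, line 365 minus line 167, was -2.49 ± 0.23 (SE) (limma adjusted p = 0.00936). Ccl7 was 3.51-fold and 4.07-fold higher in line 167 (fitted -1.92 ± 0.19 (SE), limma adjusted p = 0.0106). Ccl2 was 2.42-fold and 4.29-fold higher there (fitted -1.69 ± 0.26 (SE), limma adjusted p = 0.0279). For these 3 chemokines no array of line 365 reached an array of line 167. Il33 passed the limit only through line 167, so the filter favoured its difference, and the size against signals below the limit is uncertain. Set against the limit itself, its signal in line 167 was 2.60-fold higher with empty vector and 4.05-fold higher with Smarcb1. Its fitted difference of -2.24 ± 0.26 (SE) had an adjusted limma p of 0.0150, and of 0.00857 in the fit of all genes with no limit.

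Cxcl2 was 3.90-fold higher in line 365 with empty vector and 2.02-fold with Smarcb1 (fitted 1.49 ± 0.28 (SE), limma adjusted p = 0.0402). Cxcl1 was 3.41-fold and 1.80-fold higher there (fitted 1.31 ± 0.26 (SE), limma adjusted p = 0.0475). Both arrays of line 365 were above both of line 167 for each gene, though for Cxcl2 by a narrow margin. With the vector left out of the model, these calls ended, at adjusted p = 0.269 for Cxcl2 and 0.0756 for Cxcl1, and without the intensity trend Cxcl1 had an adjusted p of 0.0593. For several other members the line difference had another size with each vector, and that contrast was not tested. Cxcl10 was 9.20-fold higher in line 365 with empty vector and 1.44-fold with Smarcb1 (limma adjusted p = 0.134), and Cxcl16 3.66-fold and 1.28-fold (limma adjusted p = 0.139). Cxcl5 and Ccl9 were 8.84-fold and 5.72-fold higher in line 167 with Smarcb1, where with empty vector Cxcl5 was 1.60-fold higher in line 365 and Ccl9 differed by -0.32. On the Smarcb1 array of line 365 Ccl9 was below the limit (3.96), so the size of its 5.72-fold difference is uncertain. Neither Cxcl5 nor Ccl9 passed the line test (limma adjusted p = 0.423 and 0.153).

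**Figure D3:**
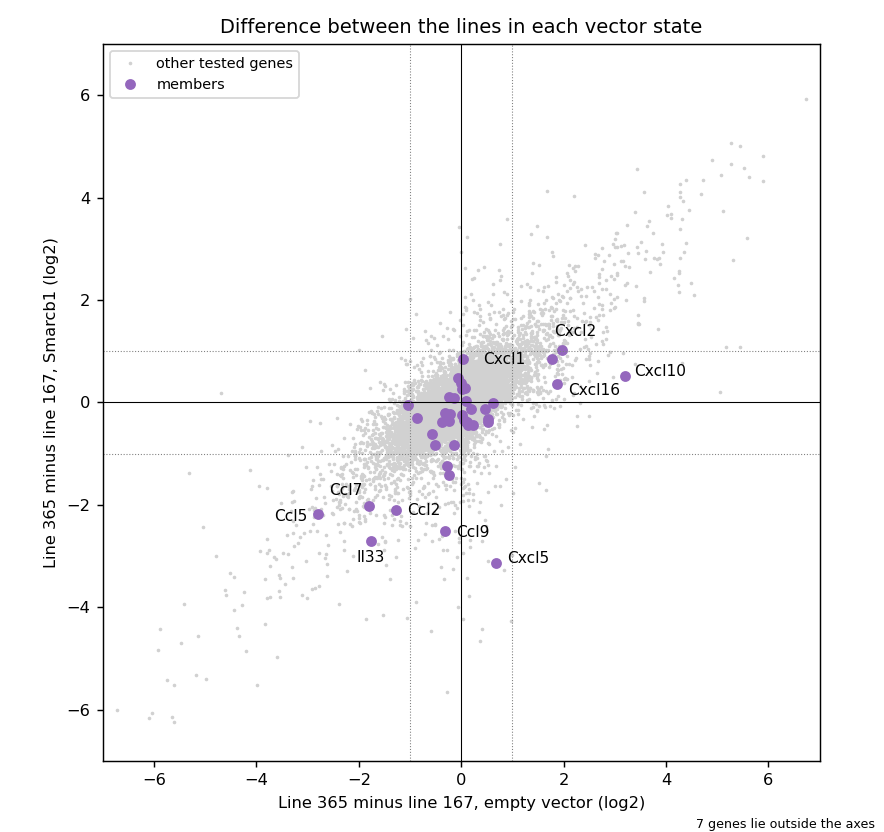
Difference between the lines (log2, line 365 minus line 167) on the Smarcb1 arrays (vertical axis) against that on the empty-vector arrays (horizontal axis), with the 40 members in purple, the other genes tested in grey and 2-fold as dotted lines. Ccl5 (-2.81 and -2.17), Ccl7 and Ccl2 lie on the side of line 167 with both vectors, Cxcl2 (1.96 and 1.02) on the side of line 365, and Cxcl10 lies far out on the empty-vector axis alone (3.20 and 0.52).

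Members that neighbour each other in the RefSeq gene order, with no other protein-coding gene between them, were not all called alike. Along the run Ccl2, Ccl7, Ccl11, Ccl12, Ccl8 and Ccl1, Ccl2 and Ccl7 were called higher in line 167. Ccl11 differed by -1.05 with empty vector and -0.06 with Smarcb1, Ccl1 by 0.20 and -0.14, and Ccl12 and Ccl8 were below the limit. In the run Ccl5, Ccl9, Ccl6, Ccl3 and Ccl4, Ccl5 was called higher in line 167. Ccl9 differed by -0.32 with empty vector and -2.52 with Smarcb1, in the direction of Ccl5 but without passing, while Ccl4 differed by 0.01 and -0.24 and Ccl6 and Ccl3 were below the limit. In the run Cxcl3, Cxcl15, Cxcl1 and Cxcl2, the last pair was called higher in line 365 and the others were below the limit. In the run Ccl22, Cx3cl1 and Ccl17, Cx3cl1 differed by 2.01 and 0.84 with Smarcb1 and Ccl17 by 0.17 and 0.17, with Ccl22 below the limit.

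The receptors and signalling genes around these ligands were taken as lists. Of 40 cytokine receptor genes found, 26 were above the limit, and 6 of them were at least 1.5-fold higher with Smarcb1 in both lines, with 0 lower, against 2.79% and 1.35% of all genes tested. None passed the vector test, while 8 of the 26 (30.8%) had an unadjusted limma p under 0.05, against 11.6% of the genes tested, all on the high side. Il13ra1 and Csf2rb were below the limit on both empty-vector arrays, so the filter favoured a higher value for them. Without such genes the counts were 5 at 1.5-fold and 6 at the unadjusted p. The median change of the list was 0.26 in line 167 and 0.35 in line 365. Il4ra, the shared receptor chain for Il4 and Il13, was at 5.75 with empty vector and 8.62 with Smarcb1 in line 167, and 6.50 and 8.78 in line 365. Both Smarcb1 arrays were above both empty-vector arrays, with a fitted change of 2.58 ± 0.22 (SE) and an adjusted limma p of 0.0583. That p became 0.0415 after quantile normalization and 0.0268 with no limit on low signals. In those settings the vector calls over all genes rose from 9 to 48 and 68. Il4ra did not pass without the intensity trend (limma adjusted p = 0.0701) or with the mean of all probe sets of a gene (0.0535). Lifr, the receptor for Lif, was at 5.89 with empty vector and 8.55 with Smarcb1 in line 167, and 5.07 and 6.81 in line 365 (fitted 2.20 ± 0.28 (SE), limma adjusted p = 0.0946). The other receptors counted were Tnfrsf1b, Osmr, Il13ra1 and Il6st, of which Il13ra1 and Il6st were named after their values were seen. Tnfrsf1b, Osmr and Il6st had fitted changes of 1.90, 1.82 and 0.84. Il13ra1 was at 4.20 with empty vector and 6.67 with Smarcb1 in line 167, and 4.01 and 5.17 in line 365, so it passed the limit only through the Smarcb1 arrays, and the size of its change is uncertain. Osmr, the oncostatin M receptor, also separated the lines, at 7.66 with empty vector and 10.16 with Smarcb1 in line 167, and 4.05 and 5.19 in line 365, with a line difference of -4.29 ± 0.36 (SE) (limma adjusted p = 0.00771). Its empty-vector signal in line 365 lay below the limit, so the size of that difference is uncertain. The ligand Lif and its receptor chains Lifr and Il6st had higher signals with Smarcb1 in both lines, and none of the 3 passed the test. Lif and Il6st were named after their values were seen. The gp130 and JAK-STAT genes taken as a list, given below, had median changes of -0.02 in line 167 and 0.04 in line 365.

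Chemokine receptors were mostly below the limit, as 9 of the 22 found were above it. Of these, 0 passed the vector test or an unadjusted limma p under 0.05, which 11.6% of the genes tested reached. Their median change was 0.04 in line 167 and 0.07 in line 365. The receptors of Cxcl12, named after their values were seen, were Cxcr4 at 5.46 with empty vector and 5.41 with Smarcb1 in line 167, and 4.91 and 5.15 in line 365, and Ackr3 at 4.80 with empty vector and 4.63 with Smarcb1 in line 167, and 5.96 and 6.28 in line 365. Neither differed with Smarcb1 by as much as its ligand, and Ackr3 was higher in line 365 (1.40 ± 0.20 (SE), limma adjusted p = 0.0241).

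Of the NF-κB components and feedback genes, 23 of 24 found were above the limit. None passed the vector test, while 7 of the 23 had an unadjusted limma p under 0.05, against 11.6% of the genes tested. Of these 7, 2 were higher (Tnfaip3 and Zc3h12a) and 5 lower (Nfkb2, Rel, Relb, Nfkbib and Myd88). The median change was -0.11 in line 167 and -0.22 in line 365. Myd88, the adaptor of Toll-like and interleukin-1 receptors, was the 1 gene of the list at least 1.5-fold lower in both lines. It was at 9.42 with empty vector and 8.69 with Smarcb1 in line 167, and 8.75 and 7.85 in line 365, with a fitted change of -0.81 ± 0.15 (SE) (limma adjusted p = 0.179). Both Smarcb1 arrays were below both empty-vector arrays, by a narrow margin. Between the lines, 2 genes of this list were called higher in line 365 (Nfkbiz and Tnfaip3) and 4 higher in line 167 (Nfkbie, Ikbke, Tnip1 and Myd88), beside 5.31% and 5.64% of all genes tested. With the vector left out of the model, the list had 2 calls in place of 6, and all genes tested had 653 in place of 1528.

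Of 26 gp130 and JAK-STAT genes found, 24 were above the limit, and 0 passed the vector test. An unadjusted limma p under 0.05 was reached by 2 of the 24 (Jak1 higher, Pias2 lower), against 11.6% of the genes tested. Socs3, the feedback inhibitor of gp130 signalling, was named after its values were seen. It was at 7.17 with empty vector and 7.54 with Smarcb1 in line 167, and 8.78 and 7.02 in line 365, highest on the empty-vector array of line 365 like Cxcl10 and Cxcl16, with an adjusted limma p of 0.651. Of 10 secreted antagonists and decoys found, 5 were above the limit. Of these, 0 passed the vector test or an unadjusted limma p under 0.05, which 11.6% of the genes tested reached. Il1rn, the interleukin-1 receptor antagonist, was also named after its values were seen. It was at 5.17 with empty vector and 9.06 with Smarcb1 in line 167, and 5.20 and 4.82 in line 365, high on the Smarcb1 array of line 167 alone, as Cxcl5 and Ccl9 were, with an adjusted limma p of 0.567.

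**Figure D4:**
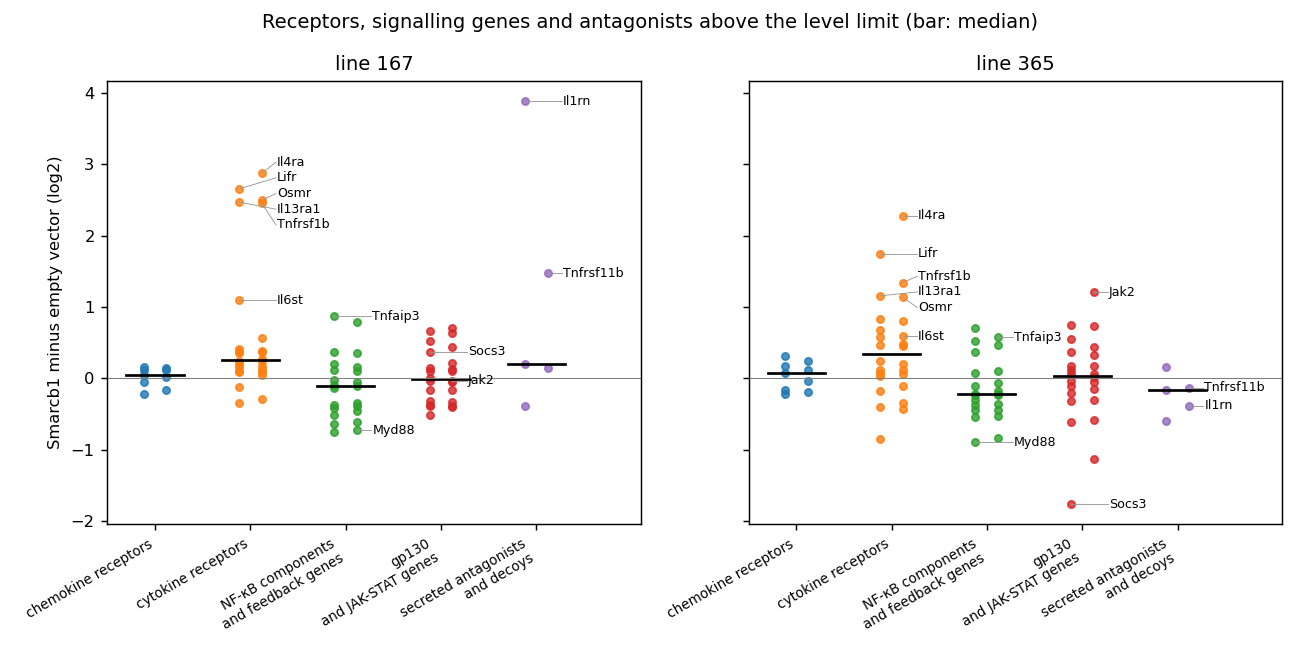
Change with Smarcb1 (log2) in line 167 and line 365 for the genes above the limit in each list, with 1 point per gene and line and a bar at the list's median. The cytokine receptors have medians of 0.26 and 0.35, the NF-κB genes of -0.11 and -0.22, and the other lists lie between -0.16 and 0.20.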

How the data were processed

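Each deposited value is a log2 signal of a probe set. The submitters' processing notes name RMA, which subtracts background, equalizes the arrays' distributions and merges probes, and Affymetrix Expression Console, so the authors normalized before deposit and the values were not normalized again. A shift in total RNA per cell is not visible in them. Tool settings were not given in the sources used here. Probe sets with 1 symbol (21789 of 35556) were kept, 1621 with several and 12146 not listed were left out, and each gene is its probe set of highest mean.

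The limit for testing was the 30th percentile of gene means (log2 4.27). The model (limma 3.58.1, R 4.3.3, eBayes with an intensity trend) held cell line and vector, with 1 residual and 3.75 prior degrees of freedom, and p-values are two-sided. SE are moderated across genes. The pairing comes from the lines: arrays of a line deviated together (r = 0.770 across genes). Depth does not apply to arrays, whose number limits the precision. P-values rest on the spread between these samples only, moderated across genes. The fit was also run on simulated data in which each changed gene had the same change in both lines. That run does not cover responses that differ between the lines.

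The members and lists were chosen with earlier results of these data known. Members above the limit were given in full if at least 2-fold changed in a line, 4-fold apart between lines, called, or among the 5 highest means. From each list up to 4 genes, at least 1.5-fold changed the same way in both lines, were named. Promoters shown are those of members given in full with the largest mean change each way that had an entry, and Cxcl1 beside its neighbour Cxcl2. Filters, normalization, probe set choice, the intensity trend, model terms and thresholds were varied. Some list genes are not analysed here.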

Additional observations from a re-analysis of the deposited data

Results flagged for a closer look

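Ccl9, Cxcl10 and Cxcl16 are singled out because each of them had a higher signal with Smarcb1 in line 167 and a lower one in line 365, and was at least 2-fold different in 1 of the lines. Ccl9 differed by 1.87 in line 167 and by -0.33 in line 365 (log2), where its Smarcb1 array (3.96) was below the limit. Cxcl10 differed by 0.14 in line 167 and by -2.54 in line 365. Cxcl16 differed by 0.21 in line 167 and by -1.31 in line 365. With 1 array per line and vector the difference between the lines in response was not tested.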

How the results depend on the processing

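Members called for the vector numbered 0, and 1 (Cxcl12) with no filter on low signals, with the filter at the 50th percentile, or at a threshold of 0.10. The filter at the 50th percentile left 12 members to test. At 1.5-fold in place of 2-fold, 4 members (10%) were higher and 1 (2.5%) lower in both lines, against 2.79% and 1.35% of all genes. The change of Ccl7 turned from -0.02 to 0.024 after cyclic loess. The model pairs the arrays by line. With no replicate block (line left out) 0 members were called, the smallest adjusted p among them was 1.00, and 2 had an unadjusted p under 0.05. Over all genes the vector calls were 9, with 68 (no filter), 101 (50th percentile), 48 (quantile), 49 (cyclic loess), 0 (no block) and 103 (threshold of 0.10). The 6 line calls were 5 at the 50th percentile, where Il33 was not tested, 5 without the trend, 4 with the vector left out and 7 at 0.10, with Il17f. The line calls of the cytokine receptors went from 4 to 8 (50th percentile), 9 (0.10) and 0 (vector left out). With the vector left out those of the NF-κB genes went from 6 to 2 and of the gp130 and JAK-STAT genes from 4 to 1. Line calls over all genes moved the same way. They were 1528, with 1939 (50th percentile), 1209 (no trend), 653 (vector left out) and 2915 (threshold of 0.10). List calls and single-line counts were varied after the data were seen. Without either line no test remains, and its values are those of the single line.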
